A study of Homo sapiens with 4 samples.

Results

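Lamins and their partners at the inner nuclear membrane were followed in HCT116 cells after silencing of the long noncoding RNA LINC00152. The group held 10 genes, LMNA, LMNB1, LMNB2, LBR, EMD, TMPO, BANF1, LEMD3, SUN1 and SUN2, out of 19974 rows in each table of values. They were taken by gene symbol, and the group was chosen on the si-152 against si-NC differences of these same libraries, in which LMNB2 and LBR were lower. The differences between groups of these 10 genes are therefore given as a description, without a test. All 10 genes were found in the tables, and all 10 were among the 11222 genes that passed the filter on low values, which asked for at least 1 FPKM in at least 2 libraries.

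HCT116 is a human colorectal carcinoma line of epithelial origin. The cells had received either a non-targeting control siRNA (si-NC) or an siRNA against LINC00152 (si-152), both at 100 nM and for 36 h, and 2 biological replicates were sequenced in each group. The study asked how gene expression responds to LINC00152 suppression. All 4 libraries come from a single cell line at a single time, and the target RNA was not analysed here, which means that the silencing has no check of its own in these values.

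The nuclear lamina is a meshwork of intermediate filament proteins that lines the inside of the nuclear envelope. A-type lamins, lamin A and lamin C, are both made from LMNA and are abundant in stiff and differentiated tissues. B-type lamins come from LMNB1 and LMNB2, carry a permanent farnesyl anchor and stay bound to the membrane. Membrane proteins such as LBR and the LEM-domain proteins tie this meshwork to chromatin, and the SUN proteins tie it to the cytoskeleton. Loss of LMNB1 is widely read as a sign of senescence, and LBR and B-type lamins hold heterochromatin at the periphery of proliferating cells.

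Short sequences in the 3′-UTRs of the lamin genes are shown first, because the study follows microRNAs that pair with 3′-UTRs. LMNB2 carries the word GACTGGAA and a match to a microRNA of the study. LMNA holds the same microRNA match, and LBR holds neither the word nor the match. Any part of these sequences in the values was not tested. For every gene, the longest 3′-UTR of its protein-coding transcripts in the basic set of GENCODE v29 (GRCh38) was used. The word GACTGGA and its longer form GACTGGAA were taken up with the values of these libraries known, and neither was tied to a microRNA here. Sites are written 5′ to 3′ on the transcript strand, with the searched word in capitals, and the site in FSCN1, the actin-bundling gene that the study follows, stands beside the site in LMNB2.
LMNB2: atacattttatGACTGGAAacttttttgta
FSCN1: caccctagcctGACTGGAAgcagaaaatga

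The LMNB2 word GACTGGAA lies at chr19:2428205-2428212 on the minus strand, in the 3′-UTR within exon 12 of 12, and 39 bases of the 2745-base 3′-UTR follow it. The FSCN1 word lies at chr7:5606202-5606209 on the plus strand, in exon 5 of 5. Of 19115 genes with a 3′-UTR, 10.6% held GACTGGA and 3.51% held GACTGGAA. Among the 10 lamina genes, LMNB2 was the only gene with either word, at a single site that holds both. Its 3′-UTR was also the longest among the 10. Over the tested genes, the median log2 difference of the 1259 genes with GACTGGA was -0.0087, against 0.02 for the 9498 genes without it. For the longer GACTGGAA it was -0.06 in 390 genes, against 0.02 in the 10367 without it. Since these words were taken up with the values known, nothing is read from these medians.

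One of the microRNAs of the study, miR-185-3p, is written here as listed by RefSeq (GRCh38.p14), with its seed (bases 2 to 8) in capitals, above the 3′-UTR sites that match the seed.
miR-185-3p: aGGGGCUGgcuuuccucugguc
LMNA: acccctgccccCAGCCCCggggtgagtcca
LMNB2: atggggggcccCAGCCCCaggccgggaagg

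The seed match CAGCCCC was found in 2 of the 10 genes, LMNA and LMNB2, and in 19.4% of all genes with a 3′-UTR. FSCN1 also holds it, starting at bases 413, 560, 865, 892 and 1174 of its 3′-UTR. The LMNA match lies at chr1:156139706-156139712 on the plus strand and in exon 11 of 11 of the transcript used. Other LMNA transcripts, which can differ in exons and 3′-UTR, were not searched. The LMNB2 match lies at chr19:2429491-2429497 on the minus strand and in exon 12 of 12. The median log2 difference of the 2344 tested genes with this match was 0.06, against 0.0097 for the 8413 genes without it. A match is a run of letters and does not show that a site is used, and miR-632 was not searched.

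The levels of the 10 genes spread widely within each library. The values carry no named unit and were read as FPKM, which scales fragments by transcript length and by sequencing depth, so that levels can be set side by side between genes, although lamin A and lamin C cannot be separated in a value per gene. LMNA was the most abundant, with a mean of 190.8 FPKM over the 4 libraries, above 97.2% of the tested genes. BANF1 followed with a mean of 144.4 FPKM and EMD with 63.2 FPKM. TMPO (44.3 FPKM), LMNB2 (38.1 FPKM), SUN1 (34.2 FPKM) and LMNB1 (33.8 FPKM) formed a middle group, in which the ranges of neighbouring genes overlapped. LBR (23.6 FPKM) and SUN2 (23.3 FPKM) overlapped too, and LEMD3 was the lowest with 5.45 FPKM. LMNA, BANF1 and EMD were each higher than the next gene in all 4 libraries.

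**Figure D1:**
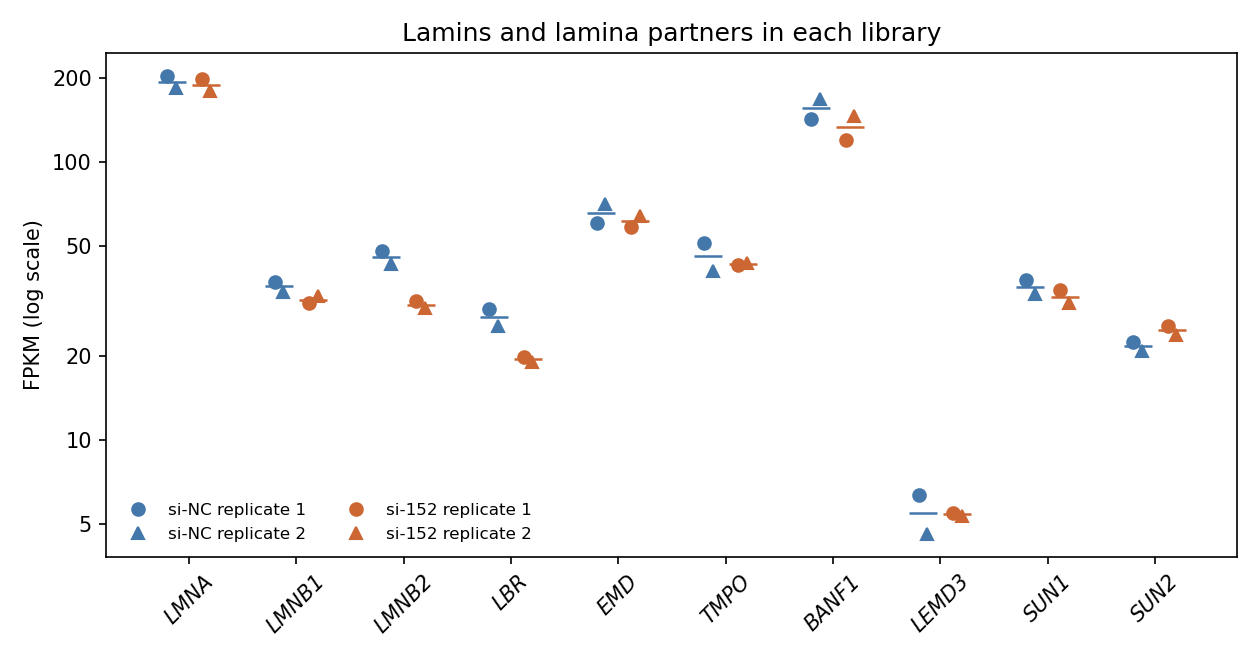
FPKM of each of the 10 genes (log scale) in the 4 libraries, with circles for replicate 1, triangles for replicate 2 and a line for each group mean. The LMNB2 and LBR values of si-152 lie well below those of si-NC, while the LMNA values of the groups overlap.

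The lamins differed from each other in how far the groups lay apart. LMNA, the A-type lamin gene on chromosome 1 from 156082573 to 156140089, was at 203 and 183 FPKM with si-NC, against 198 and 179 FPKM with si-152. Its groups overlapped, and its replicates differed more from each other than the group means did. The ratio of the group means was 0.974, and the log2 difference of si-152 minus si-NC was -0.04 (SE 0.19), on the log2(FPKM + 1) scale used for every log2 difference here. With quantile normalization this value was 0.07, so the sign for LMNA depended on the scaling.

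LMNB2, the B-type lamin gene at 2427638 to 2456996 of chromosome 19 (minus strand), was at 47.9 and 43.0 FPKM with si-NC (45.5 ± 3.48, SD, n = 2). With si-152 it was at 31.7 and 29.7 FPKM (30.7 ± 1.38, SD, n = 2). Both si-152 libraries lay below both si-NC libraries, and the gap between the groups was larger than the distance between replicates in either group. The ratio of the group means was 0.675, and the log2 difference was -0.55 (SE 0.16). The libraries numbered 1 differed by -0.58 and those numbered 2 by -0.52. Omitting any single library kept the log2 difference between -0.63 and -0.47. The annotation places TIMM13 on the same strand with an overlap of 257 bases at the 3′ end of LMNB2, and how the counting treated shared reads is not given in the sources used here. TIMM13, a mitochondrial import chaperone gene, was at 14.2 and 18.6 FPKM with si-NC, against 15.0 and 17.0 FPKM with si-152.

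LMNB1, the other B-type lamin gene, lies on chromosome 5 from 126776623 to 126837020. It was at 37.1 and 34.2 FPKM with si-NC, against 31.2 and 32.8 FPKM with si-152. The groups of LMNB1 did not overlap, but the gap between them was smaller than the distance between the si-NC replicates. Its ratio of group means was 0.898, and its log2 difference was -0.15 (SE 0.16), with -0.24 for the libraries numbered 1 and -0.06 for those numbered 2.

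The comparison of B-type with A-type lamins was also made inside each library, where the scaling of the library cancels out. LMNB2 to LMNA was 0.236 and 0.235 in si-NC and 0.160 and 0.166 in si-152. This ratio was nearly the same in the replicates of a group and apart between groups, with a log2 difference of -0.53. The within-group SD of 0.03 rests on 2 libraries per group. Since the genes were chosen with this contrast known, the gap is a description only. LMNB1 to LMNA was 0.183 and 0.186 in si-NC and 0.158 and 0.183 in si-152. For LMNB1 the second si-152 replicate lay within the range of si-NC, and without si-152 replicate 1 the log2 difference of the ratio moved from -0.12 to -0.0071. Between the B-type lamins, LMNB2 to LMNB1 was 1.29 and 1.26 in si-NC and 1.02 and 0.906 in si-152. LMNB2 was the more abundant B-type lamin in both si-NC libraries, but not in si-152 replicate 2. LMNB2 made up 16.6% and 16.5% of the summed FPKM of the 3 lamin genes in si-NC and 12.2% and 12.3% in si-152. LMNA made up 70.5% and 70.4% in si-NC and 75.9% and 74.1% in si-152, and LMNB1 between 12.0% and 13.6% in the 4 libraries. A share can move through any of its parts, and these values show unequal change only.

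**Figure D2:**
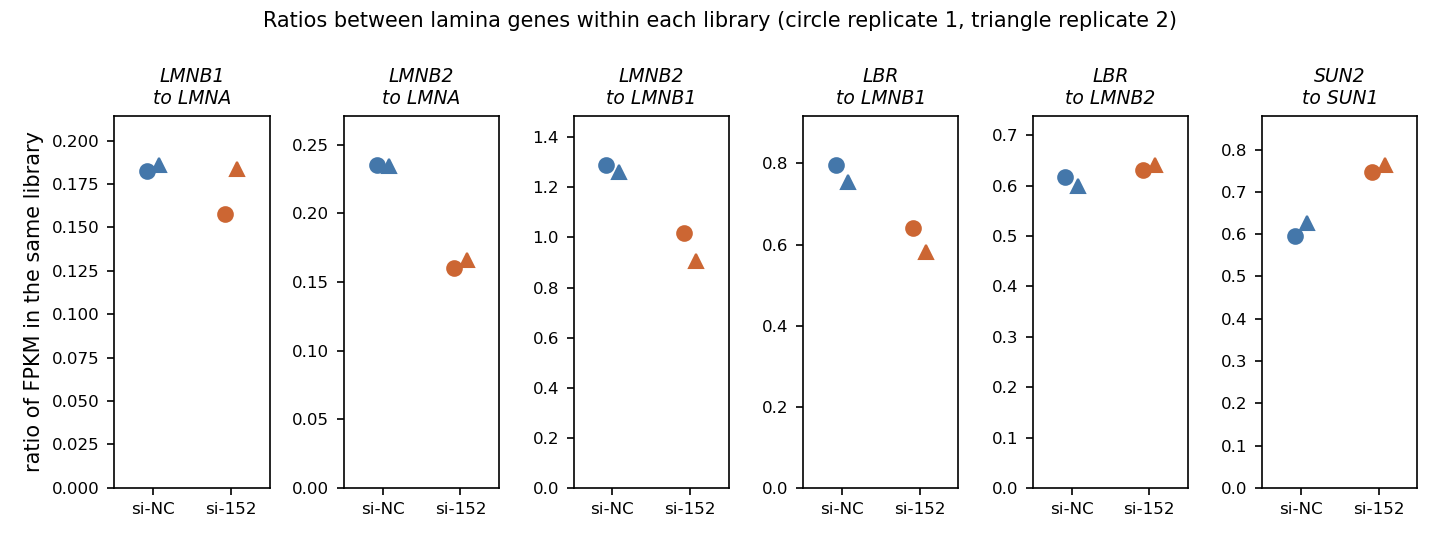
Ratios of FPKM between pairs of lamina genes in the same library, on axes that start at 0, for si-NC (blue) and si-152 (orange). LMNB2 to LMNA and LMNB2 to LMNB1 are lower in si-152, SUN2 to SUN1 is higher, LBR to LMNB2 spans a narrow range from 0.599 to 0.642, and LMNB1 to LMNA overlaps.

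LBR encodes the lamin B receptor, a membrane protein that binds B-type lamins and heterochromatin and also carries a sterol reductase domain. Its gene occupies bases 225401502 to 225428925 of chromosome 1, on the minus strand, and overlaps no other annotated gene. LBR was at 29.6 and 25.8 FPKM with si-NC (27.7 ± 2.72, SD, n = 2), against 19.98 and 19.1 FPKM with si-152 (19.5 ± 0.625, SD, n = 2). As for LMNB2, both si-152 libraries lay below both si-NC libraries by more than the distance between replicates. The ratio of the group means was 0.706, and the log2 difference was -0.48 (SE 0.17), with -0.54 and -0.41 for the libraries numbered 1 and 2. Omitting any single library kept it between -0.58 and -0.38. LBR to LMNB1 was 0.797 and 0.754 in si-NC and 0.641 and 0.582 in si-152. LBR to LMNB2 moved little, at 0.618 and 0.599 in si-NC and 0.630 and 0.642 in si-152. In bulk RNA, fewer cells of one state and less RNA per cell cannot be told apart, and this holds for every value here.

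The LEM-domain proteins bind the chromatin protein BAF, the product of BANF1, and hold chromatin at the membrane. EMD (emerin) was at 60.1 and 70.3 FPKM with si-NC, against 58.2 and 64.0 FPKM with si-152, so its groups overlapped. TMPO, which encodes the LAP2 proteins, was at 50.9 and 40.5 FPKM with si-NC, against 42.5 and 43.2 FPKM with si-152. LEMD3 (MAN1), which also restrains SMAD signalling, was at 6.38 and 4.61 FPKM with si-NC, against 5.48 and 5.34 FPKM with si-152. Both si-152 libraries of TMPO and of LEMD3 lay between the si-NC replicates. TMPO differed by -0.25 in the libraries numbered 1 and by 0.09 in those numbered 2, and LEMD3 by -0.19 and 0.18, so neither had a single direction. The log2 differences of EMD, TMPO and LEMD3 were -0.09 (SE 0.17), -0.08 (SE 0.18) and -0.0057 (SE 0.21).

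BANF1, the DNA-binding partner of the LEM-domain proteins, was at 143 and 168 FPKM with si-NC, against 120.2 and 147 FPKM with si-152. Its groups overlapped, since si-152 replicate 2 lay above si-NC replicate 1. The log2 difference was -0.22 (SE 0.20), and it was -0.25 and -0.19 in the libraries numbered 1 and 2. BANF1 and EMD were the 2 members with a higher value in replicate 2 than in replicate 1 of both groups, while 6 members were lower in replicate 2 of both. The annotation holds 5 genes named as pseudogenes of BANF1 and 2 of TMPO, so values of BANF1 and TMPO are uncertain where reads could be shared. EIF1AD overlaps BANF1 by 98 bases on the other strand.

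The SUN proteins span the inner membrane and bind nesprins in the space between the membranes. SUN1 was at 37.7 and 33.5 FPKM with si-NC, against 34.5 and 31.1 FPKM with si-152, with overlapping groups and a log2 difference of -0.11 (SE 0.17). SUN2 was at 22.5 and 21.0 FPKM with si-NC, against 25.8 and 23.8 FPKM with si-152, and both si-152 libraries lay above both si-NC libraries. Its log2 difference was 0.18 (SE 0.16), and SUN2 was the only member with a higher mean in si-152. SUN2 to SUN1 was 0.597 and 0.626 in si-NC and 0.747 and 0.765 in si-152, further apart between groups than within them. SUN1 shares 19884 annotated bases with GET4 on the same strand, and SUN2 overlaps GTPBP1 on the other strand and DNAL4 on the same strand, so both SUN values are uncertain where reads could be split. DNAL4 had a log2 difference of -0.04 (SE 0.17), and GTPBP1 was at 9.47 and 8.03 FPKM with si-NC, against 10.9 and 8.88 FPKM with si-152.

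Over the 10 genes, 9 had a lower and 1 a higher mean in si-152, and the median log2 difference was -0.10, against 0.02 over all tested genes. In the libraries numbered 1 the median was -0.22 against -0.03 over all genes, and in those numbered 2 it was -0.08 against 0.07. Of the 10, 3 (LMNB1, LMNB2 and LBR) had both si-152 libraries below both si-NC libraries, as did 13.9% of all tested genes. SUN2 had both si-152 libraries above, as did 16.5% of all tested genes. Since the group was chosen with this contrast known, nothing is read from these counts.

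**Figure D3:**
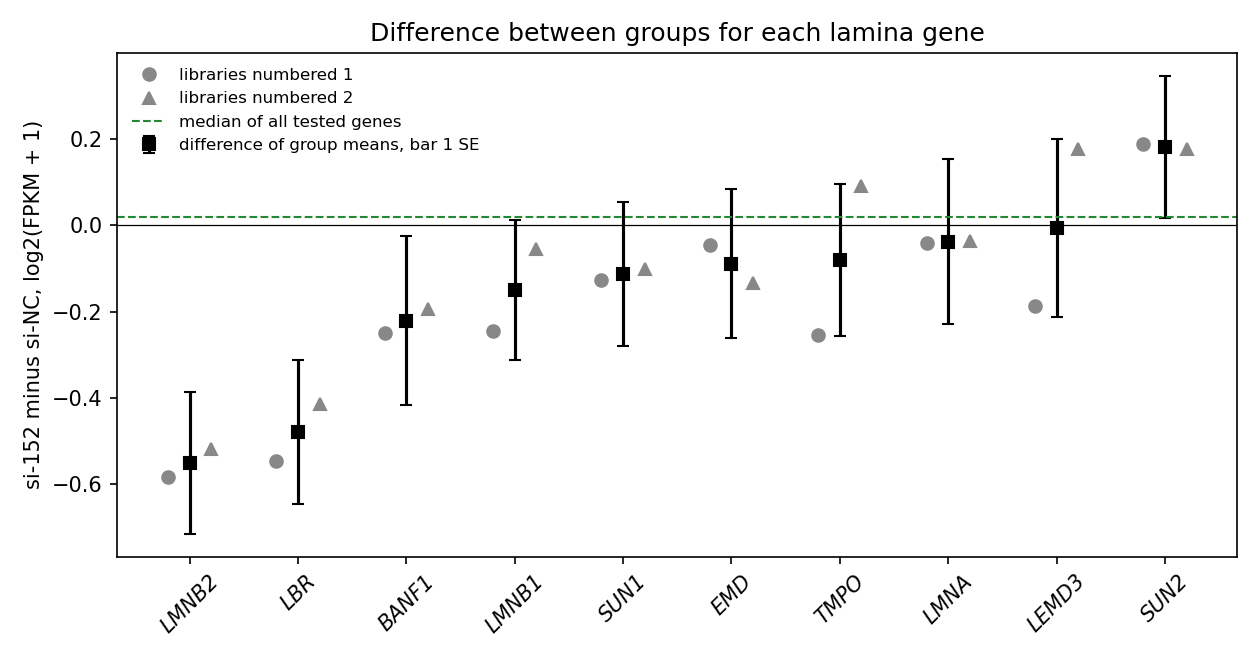
Log2 difference of si-152 minus si-NC for each gene (black squares, with bars of 1 SE from limma), beside the differences of the libraries numbered 1 (circles) and 2 (triangles) and the median of all tested genes (dashed line). LMNB2 and LBR lie farthest below 0, at -0.55 and -0.48, and SUN2 lies above it in both.

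The other genes of the nuclear envelope were read from 6 lists written from textbook knowledge, with 81 genes in all and 75 of them tested. These lists were chosen with earlier results of these data known, so their counts are a description only. Of these 75, 49 had a higher and 26 a lower mean in si-152, with a median log2 difference of 0.05, against 0.02 over all tested genes. The share of all tested genes with a higher mean was not counted, so nothing is read from such splits here. By limma's moderated test over all 11222 genes, 2 of the 75 were below an unadjusted p of 0.05, which is 2.67%, against 4.38% of all tested genes. These 2 were ICMT and SUV39H2, both higher in si-152, and 0 were lower, while 1.89% of all tested genes were higher and 2.5% lower at that p. None of the 75 had an adjusted p under 0.05, which 2 of all tested genes had (0.0178%). The counts given for the single lists are read against the same shares.

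Among the other inner nuclear membrane and LEM-domain proteins, 0 of 11 tested genes passed an unadjusted p of 0.05, and the median was 0.07. Their most abundant members were TMEM43, at 28.4 and 23.4 FPKM with si-NC, against 29.6 and 26.2 FPKM with si-152, and ANKLE2, a LEM-domain protein that guides BAF dephosphorylation, at 19.0 and 19.8 FPKM with si-NC, against 20.6 and 20.2 FPKM with si-152. Among the nesprins and other SUN proteins, 0 of 5 tested genes passed and the median was -0.13. SYNE4 (8.05 and 11.2 FPKM with si-NC, against 7.71 and 10.2 FPKM with si-152) and SYNE2 (7.02 and 5.62 FPKM with si-NC, against 6.24 and 5.54 FPKM with si-152) were the most abundant of them. The nesprin genes, whose products bind the SUN proteins, thus had lower FPKM than SUN1 and SUN2, and no protein was measured.

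Lamin B1, lamin B2 and prelamin A end in a CaaX box, which is farnesylated by FNTA and FNTB, trimmed by RCE1 or ZMPSTE24 and methylated by ICMT. ICMT was at 13.6 and 14.9 FPKM with si-NC, against 20.1 and 18.1 FPKM with si-152, a log2 difference of 0.40 (SE 0.17) with an adjusted p of 0.9996 by limma. Both si-152 libraries lay above both si-NC libraries for ICMT, in the direction opposite to LMNB2. RCE1 was at 28.3 and 29.8 FPKM with si-NC, against 24.6 and 33.2 FPKM with si-152. ZMPSTE24, which makes the last cut of prelamin A, was at 30.9 and 21.2 FPKM with si-NC, against 28.8 and 27.1 FPKM with si-152, and both genes overlapped between groups. Of the 5 processing genes, 1 passed an unadjusted p of 0.05, and their median was 0.12.

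Enzymes that take the lamina apart in mitosis and rebuild it gave 0 of 14 tested genes past an unadjusted p of 0.05, with a median of -0.02. Of these, 8 had a lower and 6 a higher mean, from -0.37 for CCNB2 to 0.17 for PPP2R2A. The phosphatase subunits PPP2CA (86.1 and 72.3 FPKM with si-NC, against 82.2 and 73.6 FPKM with si-152) and PPP2R1A (77.1 and 81.3 FPKM with si-NC, against 81.1 and 94.8 FPKM with si-152) were the most abundant of this list. Among the nucleoporins, which build the pores set into the same membrane, 0 of 31 passed, 23 had a higher and 8 a lower mean, and the median was 0.06. Their most abundant members, SEC13 and NUP85, had log2 differences of 0.05 (SE 0.20) and -0.08 (SE 0.17).

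The heterochromatin partners of the lamina include the HP1 proteins that bind LBR. CBX3 was at 123 and 104 FPKM with si-NC, against 128 and 120.4 FPKM with si-152, and CBX1 was at 87.7 and 71.0 FPKM with si-NC, against 89.3 and 97.9 FPKM with si-152. SUV39H2, which methylates histone H3 at the lysine that HP1 reads, was at 7.14 and 6.11 FPKM with si-NC, against 10.2 and 9.01 FPKM with si-152, a log2 difference of 0.47 (SE 0.19) with an adjusted p of 0.9996 by limma. Its groups did not overlap. Of the 9 tested genes, 7 had a higher mean in si-152 and the median was 0.13. For 5 of the 9, both si-152 libraries lay above both si-NC libraries, as for 16.5% of all tested genes. For 0 of the 9 they lay below, against 13.9% of all tested genes. As the lists were chosen with earlier results known, nothing is read from these counts.

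**Figure D4:**
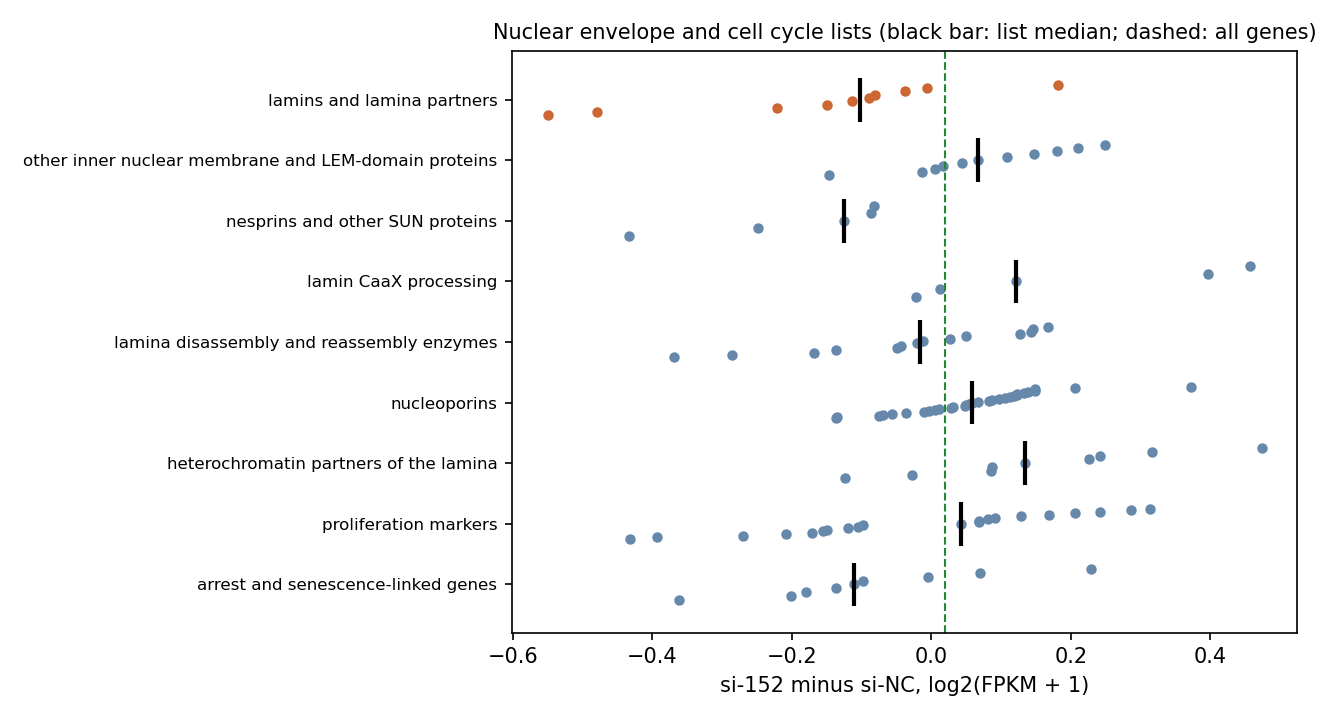
Log2 difference of si-152 minus si-NC for every tested gene of each list (points), with the median of the list (black bar) and of all tested genes (dashed line). The lamins and their partners have a median of -0.10, and the nucleoporins one of 0.06.

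LBR and LMNB1 are known to vary with the cell cycle, so markers of proliferation were set beside them. The summed FPKM of the 21 markers was 1004 and 997 in si-NC and 922 and 1038 in si-152, with overlapping groups, and their median log2 difference was 0.04. AURKB, the kinase of the chromosomal passenger complex, was at 40.2 and 40.7 FPKM with si-NC, against 28.9 and 30.6 FPKM with si-152, and CCNA2 (cyclin A2) was at 32.2 and 28.8 FPKM with si-NC, against 24.4 and 21.6 FPKM with si-152. These 2 of the 21 markers were lower at an unadjusted p of 0.05 by limma, as were 2.5% of all tested genes. Their adjusted p-values by limma were 0.9996 for both. Of the 21, 10 had a lower mean, namely AURKB, CCNA2, BIRC5, MKI67, FOXM1, TOP2A, HMGB2, AURKA, CENPF and TPX2. The 11 with a higher mean were E2F1, PCNA, MCM2, MCM3, MCM4, MCM5, MCM6, MCM7, BUB1, BUB1B and UBE2C. The sum and the median thus combine genes with opposite directions, and no higher marker passed that p. The most abundant markers, HMGB2 and UBE2C, had log2 differences of -0.15 (SE 0.21) and 0.07 (SE 0.19). The part of the cell cycle in the LMNB2 and LBR values was not tested. Of 9 tested genes linked to arrest and senescence, 0 passed an unadjusted p of 0.05, 7 had a lower mean in si-152 and the median was -0.11. For 4 of the 9, both si-152 libraries lay below both si-NC libraries, as for 13.9% of all tested genes. For 0 of the 9 they lay above, against 16.5% of all tested genes. CDKN1A, the p53-driven cell cycle inhibitor, was at 164 and 156 FPKM with si-NC, against 139.7 and 142 FPKM with si-152. The most abundant of this list were GDF15, at 2604 and 2542 FPKM with si-NC, against 1620.0 and 2471 FPKM with si-152, and HMGB1, with a log2 difference of -0.0045 (SE 0.19).

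The labelled cell type was checked against its markers. The epithelial markers EPCAM, CDH1, KRT8, KRT18 and KRT19 were all present, led by KRT8 and KRT19. Their summed FPKM was 3017 and 3520 in si-NC and 2377 and 2962 in si-152, and all 5 had a lower mean in si-152, with a median log2 difference of -0.24. That median was -0.28 in the libraries numbered 1 and -0.19 in those numbered 2. This was the direction of the LMNB2 and LBR values, and its part in them was not tested. For 2 of the 5, both si-152 libraries lay below both si-NC libraries, as they did for 13.9% of all tested genes. Of the 5, 0 passed an unadjusted p of 0.05. Of 6 intestinal markers CDX2 alone was above 1 FPKM, at 8.29 to 10.4 FPKM, while CDX1 and ASCL2 were listed at 0 in every library. The 11 fibroblast, endothelial and leukocyte markers summed to 10.1 to 11.1 FPKM, most of it from COL1A1 and CD68, and PTPRC, DCN and COL1A2 were listed at 0. The summed FPKM of all rows lay between 424754 and 534311 per library, and their read depth is unknown.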

How the data were processed

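Total RNA from 4 HCT116 cultures was sequenced on the Solexa platform. Per the labels, the submitters' processing notes name Trimmomatic, TopHat, HISAT2, HTSeq, DESeq and GRCh38, without role or order. For each library the authors deposited a table that pairs gene symbols with values. The unit is not named, and the deposited values were read as FPKM from their decimals, exact zeros and unequal sums. Strand and read counts are not given in the sources used here, and low values showed no clear step of whole reads. Dates stood in place of 28 symbols, and 2 symbols occurred again.

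The values were not counts, so the planned fallback was used. Log2(FPKM + 1) was fitted with limma 3.58.1 (R 4.3.3, mean-variance trend, no block) for the 11222 genes that reached 1 FPKM in 2 or more libraries, with Benjamini-Hochberg adjustment. The fit was tested on simulated data. Ratios were taken within libraries in Python 3.11.15. The p-values measure only the spread between these 4 libraries. The members and lists were chosen with earlier results of these data known. Named genes were the 10 members and, of each list, genes with an unadjusted p under 0.05 and the 2 most abundant. Named beside these, after their values were seen, were CDKN1A, CCNB2, PPP2R2A, PTPRC, DCN, COL1A2, CDX1 and ASCL2. FSCN1, the other proliferation markers and genes that overlap a member were added in the same way. Symbols of 5 list genes were matched through RefSeq synonyms. Other pseudocounts, filters, scalings, a replicate block and the omission of each library were tried.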

Additional observations from a re-analysis of the deposited data

How the results depend on the processing

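Across the other pseudocounts, filters, scalings and the model without a trend, the log2 difference of LMNB2 stayed between -0.57 and -0.53, that of LBR between -0.50 and -0.48, and the median of the 10 genes between -0.12 and -0.08. The 10 genes were chosen on this contrast, so these ranges describe the settings only. LMNA changed sign with quantile normalization. Leaving out each library in turn, that median ranged from -0.20 to -0.0605, the LMNB2 to LMNA log2 difference from -0.55 to -0.50, and the LMNB1 to LMNA log2 difference from -0.23 to -0.0071. EMD, LMNA, TMPO and LEMD3 changed sign in at least 1 of these fits. At an unadjusted p under 0.05 and a fold change above 1.5 there were 186 genes, and between 242 and 546 with a library left out, where fewer samples set the spread. An adjusted p under 0.05 was reached by 2 genes, by 57 and 48 without si-NC replicate 1 and 2, by 45 and 78 without si-152 replicate 1 and 2, and by 0 or 1 under the other pseudocounts, filters, scalings and without a trend. Residuals rest on few libraries, and counting error could not be given without read depth.

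With a replicate block, 209 genes passed the thresholds on p and fold change, and 78 had an adjusted p under 0.05. At an unadjusted p under 0.05 there were 1893 of 11222 genes (16.9%) with the block and 492 (4.38%) without it. Of the 75 other nuclear envelope genes, 7 (9.33%) were below that p with the block and 2 (2.67%) without it. Across genes, libraries that share a number deviated together from their groups (Pearson's r = 0.52), but the labels do not say that a number marks a shared batch.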
